A study of Mus musculus with 4 samples.

Results

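Nppa, Nppb, Myh6, Myh7, Acta1, Ankrd1, Xirp1, Xirp2 and Rcan1 are genes of the cardiomyocyte whose transcript levels are known to change when the heart is loaded or reverts to its fetal program. These 9 genes were taken by their symbols from the 23238 gene symbols measured in the heart, and each symbol stood for 1 value per library. The study compared male CDF1 mice in 4 groups of 10 mice each. The labels give their age as postnatal day 28, but by the study's methods the mice were bought at about that age and killed at the end of the experiment, so the age of the hearts is uncertain. Normal control mice, E(−)T(−), neither exercised nor received tumor cells. Normal exercise mice, E(+)T(−), ran on a motorized treadmill at high intensity every other day, cancer control mice, E(−)T(+), received CT26 colorectal cancer cells through the tail vein and did not exercise, and cancer exercise mice, E(+)T(+), received the cells and exercised. No genotype other than the strain is given, and all groups shared the same housing and food. Each group was represented in the heart by 1 library, and whether that library came from 1 mouse or from pooled mice was not stated. Differences between libraries therefore have no replicate check, and exercise or tumor cannot be told apart from variation between animals, dissections or libraries.

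In the fetal heart and again under hemodynamic load, cardiomyocytes make more of the natriuretic peptides encoded by Nppa and Nppb, of β-myosin heavy chain encoded by Myh7 and of skeletal α-actin encoded by Acta1, while α-myosin heavy chain encoded by Myh6 is the main isoform of the adult mouse ventricle. Ankrd1 encodes a titin-bound ankyrin repeat protein that responds to stretch, and Xirp1 and Xirp2 encode actin-binding Xin repeat proteins of the intercalated disc. Rcan1 encodes a regulator of the phosphatase calcineurin and has an internal promoter that calcineurin signaling through NFAT activates.

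The libraries sequenced the 3′ ends of mRNA, so long and short transcripts give reads alike. Where 4 values follow each other, they stand for normal control, then normal exercise, then cancer control and last cancer exercise. Values are log2(normalized read count + 1) as deposited, and read numbers are whole reads recovered from them. The totals were 6595398 reads in normal control, 8477184 in normal exercise, 9532854 in cancer control and 11545982 in cancer exercise. Cancer exercise stood apart, because globin genes took 37.3% of its reads against 7.86% to 8.76% in the other libraries. In it Hbb-bs and Hbb-b1 had 805164 and 791332 reads, and Hbb-bt and Hbb-b2 had 254962 and 241042. Some globin reads may thus be counted under 2 symbols, which would raise the globin shares, the totals and the library sizes. This was not tested. All 11 cardiomyocyte markers were detected in every library, with summed normalized read counts from 535840 to 600912, and none of them differed by 2-fold in any comparison as deposited. Under scaling to library size 1 of them was lower in cancer control vs. normal control and 3 in cancer exercise vs. normal exercise. Markers of macrophages and neutrophils summed to 1258, 1241, 4109 and 6079 normalized reads and those of adipocytes to 1754, 440, 422 and 2418. Both sums thus differed between the libraries compared below, and their part in the results was not tested. S100a8 and S100a9 had 40 and 54 reads in normal control but 2537 and 2329 in cancer exercise. Log2 differences of Csf1r, Adgre1 and Cd68 were −0.11, −0.37 and 1.86 in cancer control vs. normal control. In cancer exercise vs. normal exercise they were −0.68, −1.315 and 0.26. In whole tissue, fewer cells of a type and less RNA per cell cannot be told apart. Intervals in brackets are 95% Clopper-Pearson intervals from the reads unless another method is named. They cover counting error only, and reads copied by PCR are not independent molecules.

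**Figure D1:**
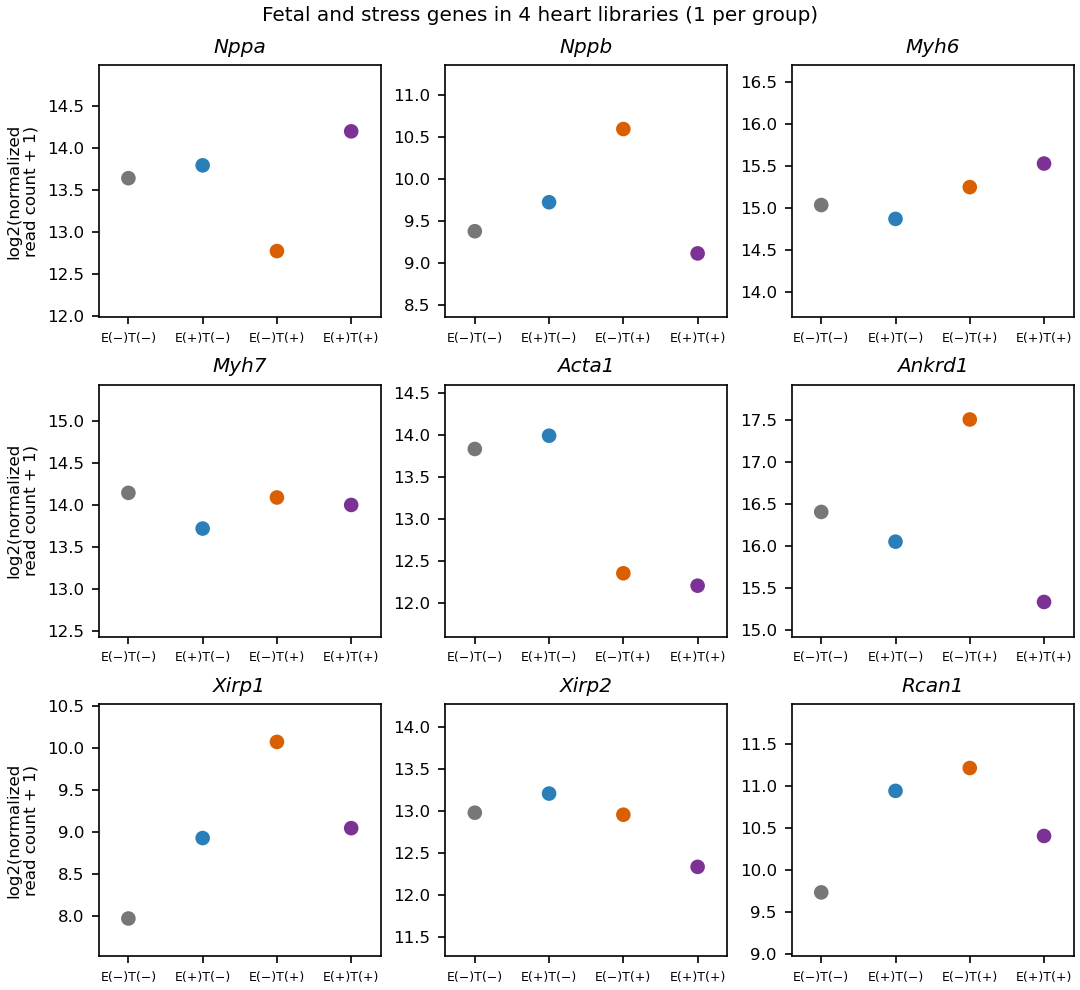
The log2(normalized read count + 1) of each of the 9 genes is plotted for the 4 heart libraries, 1 point per library. Every panel spans the same 3 log2 units but is centered on its own gene. Nppb, Ankrd1, Xirp1 and Rcan1 were highest in E(−)T(+), while Nppa was lowest there and Acta1 was low in both tumor libraries.

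The first comparison asked how exercise changed the hearts of mice without tumors. A gene counts as different here when it reached 4 normalized reads in at least 1 of the 2 libraries and differed by at least 2-fold. Only Rcan1 of the 9 genes did so in normal exercise vs. normal control, and it was 2.31-fold higher. Of all 13937 genes compared, 5.88% were higher and 6.40% lower by this definition. Xirp1 came next at 1.94-fold, and 8 of the 9 genes stayed under 2-fold. Their median log2 difference was 0.16, and that of all genes was 0.00. The reads of all 9 genes differed between these 2 libraries in the exact binomial test with Benjamini-Hochberg adjustment, which 20.5% of all genes passed. That test compares 2 libraries and not the conditions. It also depends on read number, and small differences pass where reads are many. Nppa passed at a log2 difference of 0.15, from 15724 against 11159 reads. All genes include those with as few as 4 normalized reads. The share of all genes that passed therefore cannot set the 9 genes apart, in this comparison or those below.

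Exercise in tumor-bearing mice was compared in cancer exercise vs. cancer control. Here 1 gene was higher by at least 2-fold, Nppa, and 3 were lower, namely Nppb, Ankrd1 and Xirp1. Among all 14363 genes compared, 9.39% were higher and 10.0% lower. The median of the 9 genes was −0.62 and that of all genes −0.01. All 9 passed the read test, as did 39.7% of all genes. When the reads were scaled to library size in place of the deposited normalization, the median of all genes moved to −0.60, 3.81% of all genes were higher and 25.6% lower, and of the 9 genes 0 were higher and 5 lower. Reads of globin genes are part of that library size.

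The tumor comparison without exercise, cancer control vs. normal control, had 5 of the 9 genes past 2-fold. Xirp1, Rcan1, Nppb and Ankrd1 were higher by at least 2-fold and Acta1 was lower. In all 14317 genes 14.6% were higher and 13.1% lower, and the read test was passed by 51.4%. It was passed by 8 of the 9 genes, all but Xirp2. Their median difference was 0.21, against −0.01 over all genes. Scaled to library size, 12.3% of all genes were higher and 17.0% lower, and the 9 genes gave 3 higher and 2 lower.

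With exercise, the tumor comparison cancer exercise vs. normal exercise left 1 gene past 2-fold, Acta1, which was lower. None of the 9 genes was higher by at least 2-fold, where 12.0% of the 14289 genes were, and 11.1% of all genes were lower. The read test was passed by 8 of the 9 genes, all but Xirp1, and by 47.0% of all genes. The median of the 9 genes was −0.54 and that of all genes −0.01. Under scaling to library size the median of all genes was −0.74, 5.62% of all genes were higher and 35.3% lower, and 5 of the 9 genes were lower.

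**Figure D2:**
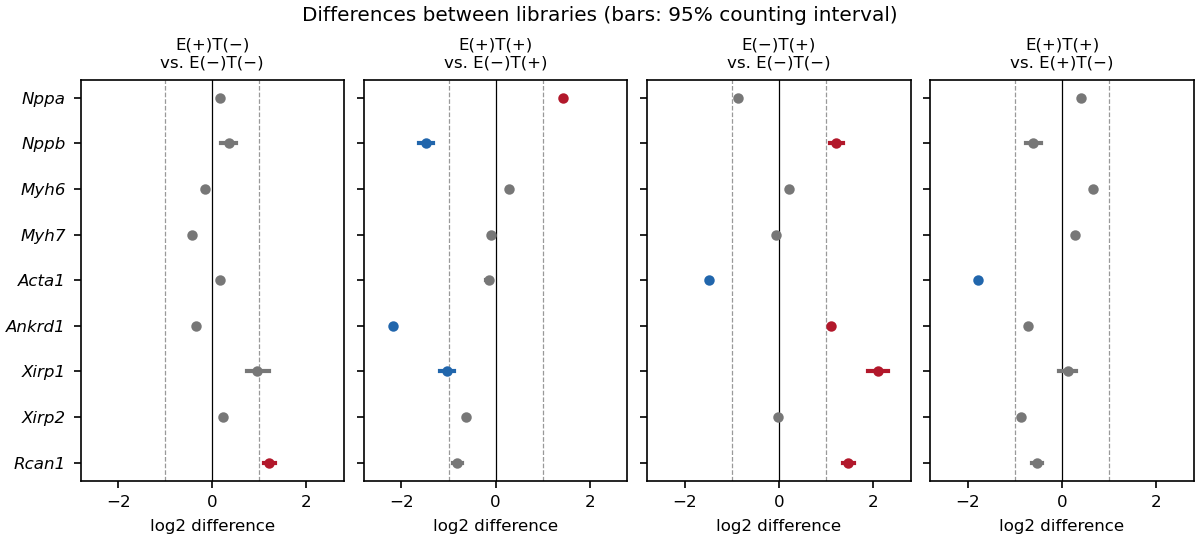
Log2 differences of the 9 genes are shown for the 4 comparisons, with the first-named library minus the second. Bars are 95% counting intervals, narrower than the point where reads are many, and dashed lines mark 2-fold. Red points are higher and blue points lower by at least 2-fold, and E(−)T(+) vs. E(−)T(−) holds 4 red points and 1 blue point.

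The natriuretic peptide genes lie next to each other on chromosome 4, in the GRCm38.p6 build, Nppb at 147985786-147987205 and Nppa at 148000722-148002074, with 13516 bases between them. Promoter sequences are shown for the genes with a window that passed 2-fold in at least 1 comparison, so that members that share a locus or a direction can be compared letter by letter. They are the 250 bases before a RefSeq transcript start in GRCm38.p6, and 8 of the 9 genes, all but Xirp1, were matched to such a window. Both strands were searched for AGATAA of GATA factors, CATTCC of TEAD factors, GGAAAA of NFAT, the CArG box of SRF, TAAAAATA of MEF2 and the TATA box TATAAA. Capitals mark these letters, on either strand. The Nppa window is chr4:148000472-148000721 and the Nppb window chr4:147985650-147985899, both on the plus strand.
Nppa: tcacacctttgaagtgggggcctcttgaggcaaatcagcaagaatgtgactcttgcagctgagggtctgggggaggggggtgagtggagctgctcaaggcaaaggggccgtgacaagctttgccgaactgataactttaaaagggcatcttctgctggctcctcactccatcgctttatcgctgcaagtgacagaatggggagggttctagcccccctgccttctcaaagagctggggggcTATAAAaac
Nppb: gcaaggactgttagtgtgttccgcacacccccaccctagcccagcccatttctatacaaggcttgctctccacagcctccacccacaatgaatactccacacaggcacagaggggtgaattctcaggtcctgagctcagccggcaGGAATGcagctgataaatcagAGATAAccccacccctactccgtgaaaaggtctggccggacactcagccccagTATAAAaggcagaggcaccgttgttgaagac
The Nppb window held AGATAA beginning 84 bases before the start, CATTCC on the opposite strand at 105 bases and TATAAA at 31 bases. Only TATAAA was in the Nppa window, at 9 bases. Of 32817 promoter windows of this length, AGATAA was in 9.99%, CATTCC in 12.6% and TATAAA in 12.4%. A match of letters is a description and not a binding site.

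Nppa and Nppb went in opposite directions in the tumor-bearing mice, although they are neighbors. Nppa, which encodes atrial natriuretic peptide, had log2 values of 13.64 in normal control, 13.80 in normal exercise, 12.78 in cancer control and 14.20 in cancer exercise. It was lowest in the sedentary tumor library and highest in the exercised one, although as a share of all reads normal exercise, at 0.185%, was above cancer exercise, at 0.149%. The difference of cancer exercise vs. cancer control was 1.43 [1.39, 1.46], or 2.69-fold, and fell to 0.84 under scaling to library size. With reads subsampled to the smallest library it was 0.82, but all libraries then have the same total. That setting therefore also scales by library size and does not show an effect of depth. Without a tumor, exercise gave 0.15 [0.12, 0.19]. Cancer control lay below normal control by a log2 difference of −0.87 [−0.91, −0.83], under the 2-fold limit, and by −1.02 under scaling to library size.

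Nppb, which encodes B-type natriuretic peptide, stood at 9.38, 9.72, 10.60 and 9.12 in the usual order, from 580, 934, 1753 and 506 reads. The sedentary tumor library was thus the highest and the exercised tumor library the lowest. Cancer control exceeded normal control by 1.22 [1.08, 1.36], or 2.32-fold, and cancer exercise was below cancer control by −1.48 [−1.63, −1.34], or 2.79-fold. Reads of Nppa per read of Nppb, a ratio within a library that no scaling alters, were 19.2 [17.7, 21.0] in normal control, 16.8 [15.8, 18.0] in normal exercise, 4.53 [4.30, 4.78] in cancer control and 34.0 [31.2, 37.3] in cancer exercise. The intervals of the tumor libraries did not overlap each other or those of the libraries without tumor.

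Nppa is made mostly by atrial cells in the adult heart, and the sum of 5 atrial markers was, like Nppa, lowest in cancer control and highest in cancer exercise. Their summed normalized read count was 2269 in normal control, 4730 in normal exercise, 2057 in cancer control and 10401 in cancer exercise. Sln, which encodes the atrial calcium pump regulator sarcolipin, was 3.03 log2 units higher in cancer exercise than in cancer control, and in that comparison 3 of the 4 atrial markers with enough reads were at least 2-fold higher. Bmp10, a growth factor of the right atrium, had 0 reads in normal exercise and cancer control, 6 in normal control and 1 in cancer exercise. Their part in the Nppa differences was not tested. Set against the cardiomyocyte markers, Nppa had 23.9, 26.3, 12.9 and 31.3 reads per 1000 marker reads.

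**Figure D3:**
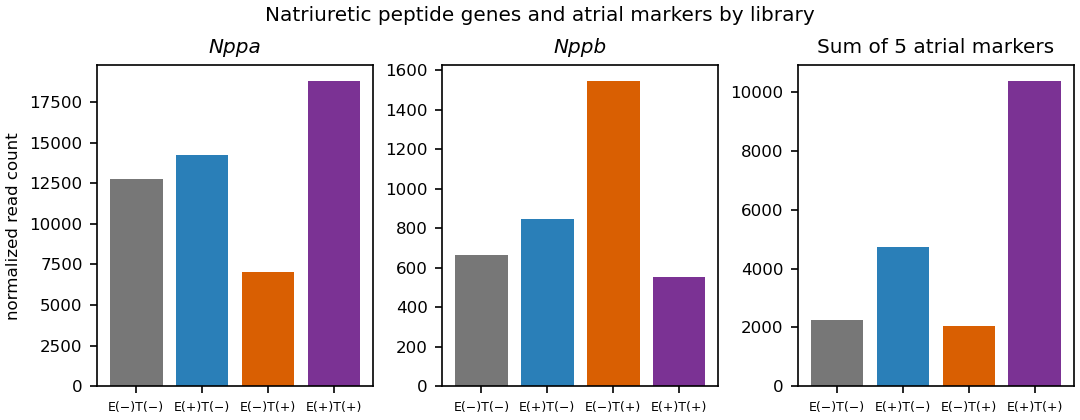
Normalized read counts of Nppa and Nppb and the summed count of 5 atrial markers are drawn as bars from 0, 1 bar per heart library. Nppa and the atrial markers were highest in E(+)T(+), at 18832 and 10401, whereas Nppb was highest in E(−)T(+), at 1547.

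Lists of related genes were compared next, to be read beside the shares and medians of all genes given above, as deposited and under scaling to library size. Genes that process or receive the peptides came first. Of 10 such genes with enough reads (a list written for this description, like those that follow), 0 passed 2-fold in normal exercise vs. normal control, 2 were higher in cancer exercise vs. cancer control, 1 was higher and 1 lower in cancer control vs. normal control, and 2 were higher and 1 lower in cancer exercise vs. normal exercise, where the shares of all genes are those given above for each comparison. Their medians were −0.16, 0.08, 0.03 and 0.52, and under scaling to library size the second became −0.51, with 0 genes past 2-fold, and the last −0.20, with 0 genes higher and 4 lower. Pcsk6, a protease that activates corin, was −2.98 [−3.27, −2.72] in cancer control vs. normal control, from 794 reads down to 130, and 1.57 higher in cancer exercise vs. cancer control. Furin, a protease that cleaves the B-type precursor, was 1.06 higher with the tumor in sedentary mice. In exercised mice, the tumor library was higher by 1.37 for Npr3, the clearance receptor, and by 1.32 for Corin, the protease that cleaves the atrial precursor.

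The myosin heavy chain genes varied least. Myh6 had log2 values of 15.04, 14.87, 15.25 and 15.53 in the usual order, a range of 1.58-fold. Myh7 had 14.14, 13.72, 14.09 and 14.00, a range of 1.34-fold. Neither gene reached 2-fold in any comparison. The difference of Myh6 between the exercised libraries, 0.66 [0.64, 0.68], changed sign to −0.06 under scaling to library size.

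Because both genes are read in the same library, their share is free of scaling. Myh7 made up 35.0% [34.5, 35.4] of Myh6 and Myh7 reads in normal control, 31.0% [30.6, 31.4] in normal exercise, 30.9% [30.5, 31.2] in cancer control and 25.7% [25.3, 26.0] in cancer exercise. The fetal isoform's share was thus highest in the untreated library and lowest where tumor and exercise met, and only normal exercise and cancer control had overlapping intervals. On chromosome 14, Myh7 lies at 54970684-54994626 and Myh6 at 54941921-54968017, with 2666 bases between them, and the long noncoding RNA Mhrt, at 54968787-54974349, overlaps Myh7. Reads listed for Mhrt came to between 41.1% and 55.0% of those listed for Myh7. Whether strand was used in the counting is not given, so reads of these genes cannot be told apart where they overlap, and reads that match both myosin genes are likewise uncertain. With the Mhrt reads taken off, the Myh7 share was 24.1%, 18.3%, 18.2% and 13.5%.

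**Figure D4:**
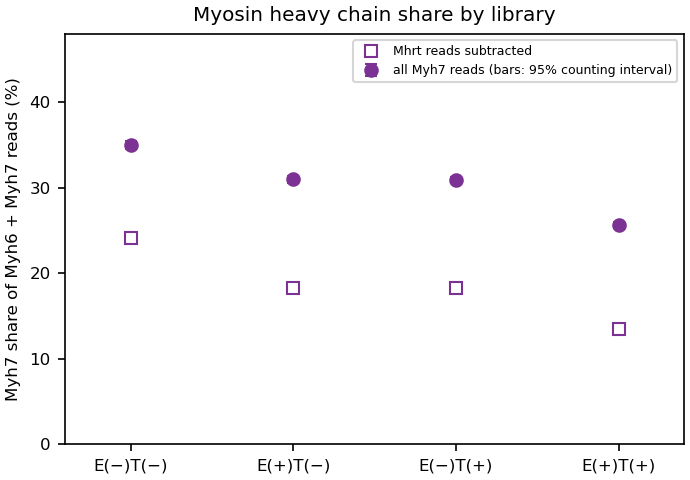
The Myh7 share of Myh6 and Myh7 reads is plotted in percent for each heart library. Filled circles use all Myh7 reads, with 95% counting intervals about the size of the symbol, and open squares subtract the Mhrt reads, which lowers every library but leaves E(−)T(−) highest and E(+)T(+) lowest.

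Acta1, skeletal α-actin, differed by 2-fold with the tumor in both tumor comparisons and in neither exercise comparison. Its log2 values were 13.83 in normal control and 13.99 in normal exercise, but 12.35 in cancer control and 12.20 in cancer exercise. Reads numbered 12704 and 17963 without tumor and 5918 and 4307 with it. Cancer control was 2.79-fold below normal control, with a log2 difference of −1.48 [−1.52, −1.44], and cancer exercise was 3.45-fold below normal exercise, with −1.79 [−1.83, −1.74]. The exercise differences were 0.16 [0.13, 0.19] and −0.15 [−0.21, −0.09]. Acta1 is also the main actin of skeletal muscle. The 10 fast skeletal muscle markers summed to 70.1, 39.4, 110 and 107 normalized reads, with 1 marker at 0 reads in each library, and their part in the Acta1 differences was not tested. The promoter window of Acta1, at chr8:123894776-123895025 on the minus strand, held the only CArG box among the windows of these genes, 73 bases before the start, together with CATTCC at 46 bases and TATAAA at 7 bases. A CArG box was in 1.47% of all promoter windows.
Acta1: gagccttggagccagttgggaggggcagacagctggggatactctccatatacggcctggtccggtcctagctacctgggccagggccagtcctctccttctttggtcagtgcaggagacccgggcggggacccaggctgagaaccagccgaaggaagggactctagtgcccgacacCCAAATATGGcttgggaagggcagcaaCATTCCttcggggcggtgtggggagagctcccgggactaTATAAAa

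Other fetal isoforms and stress genes did not share 1 direction. Of 13 with enough reads, 4 were at least 2-fold higher and 0 lower in normal exercise vs. normal control, with a median of 0.65. In cancer exercise vs. cancer control 3 were higher and 3 lower, with a median of −0.09, and in cancer control vs. normal control 4 were higher and 2 lower, with a median of −0.02. For cancer exercise vs. normal exercise, 0 of 12 were higher and 2 lower, with a median of −0.23. Scaling to library size made this 0 higher and 7 lower of 13, where 35.3% of all genes were lower. It made cancer exercise vs. cancer control 3 higher and 5 lower, with a median of −0.66, where 25.6% of all genes were lower. Tnni1, slow skeletal troponin I, is counted among the lower genes of cancer exercise vs. cancer control on 0 against 7 reads. Acta2, smooth muscle α-actin, was 1.41 higher in normal exercise than in normal control. The 4 smooth muscle markers, of which Acta2 is one, summed to 2098 in normal control, 6004 in normal exercise, 4606 in cancer control and 4213 in cancer exercise, and their part in that difference was not tested. Myl7 and Myl4, atrial myosin light chains that are also among the atrial markers, were higher in exercise, Myl7 by 1.20 without tumor and Myl4 by 2.32 with it. Slc2a1, the glucose transporter of the fetal heart, was 1.31 [0.94, 1.72] higher in cancer control than in normal control.

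Ctgf, a matricellular protein made by cardiomyocytes and fibroblasts, had the largest difference of that list between cancer control and normal control. Its reads were 1702, 3467, 12281 and 2238, so that the sedentary tumor library was far above the others. Cancer control exceeded normal control by 2.47 [2.40, 2.55] and cancer exercise lay below cancer control by −2.15 [−2.21, −2.08]. The 6 fibroblast markers were also highest in cancer control, with sums of 25339, 30226, 55031 and 32034. Dcn alone held 45866 of their 62395 reads in cancer control and 26892 of 29292 in cancer exercise. In cancer control 4 of the 6 were at least 2-fold higher than in normal control. In cancer exercise 4 were at least 2-fold lower than in cancer control and 3 than in normal exercise, and 0 were that much higher. The part of these markers in the differences of Ctgf and of the genes that follow was not tested.

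Ankrd1, the stretch-responsive titin partner, had the widest range of the 9 genes. Log2 values were 16.40, 16.05, 17.50 and 15.33 in the usual order, from 75494, 74855, 210455 and 37638 reads. It took 2.21% of all reads in cancer control but 0.326% in cancer exercise. The tumor library without exercise was 2.15-fold above its control, with 1.10 [1.09, 1.11], and the exercised tumor library was 4.51-fold below the sedentary one, with −2.17 [−2.19, −2.16]. Without tumor, exercise gave −0.35 [−0.37, −0.34], the same sign with a smaller size. Under scaling to library size, the difference of cancer control vs. normal control was 0.95, just under 2-fold, and subsampled reads gave the same. Per 1000 cardiomyocyte marker reads, Ankrd1 had 161, 125, 342 and 68.5. The Ankrd1 promoter window, chr19:36119845-36120094 on the minus strand, held 2 copies of CATTCC on the opposite strand, beginning 210 and 123 bases before the start, and AGATAA on the opposite strand at 47 bases.
Ankrd1: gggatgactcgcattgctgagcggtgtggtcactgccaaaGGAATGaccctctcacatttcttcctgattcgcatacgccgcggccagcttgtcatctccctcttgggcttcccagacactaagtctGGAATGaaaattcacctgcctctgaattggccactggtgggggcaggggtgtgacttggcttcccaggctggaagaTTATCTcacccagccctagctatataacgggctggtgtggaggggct

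Xirp1 was the least abundant of the 9 genes, with 217, 536, 1216 and 481 reads and log2 values of 7.97, 8.92, 10.07 and 9.04. Normal control was lowest and cancer control highest. The tumor difference in sedentary mice was 2.10 [1.90, 2.32], or 4.30-fold, and the exercise difference in tumor-bearing mice was −1.03 [−1.18, −0.87], or 2.04-fold lower. Exercise without tumor gave 0.96 [0.73, 1.20], an interval that includes 2-fold. Cancer exercise and normal exercise did not differ beyond counting error, at 0.12 [−0.06, 0.30], with an adjusted p of 0.305 in the exact binomial test. That value changed sign under 4 of the scalings tried.

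Xirp2, the related Xin repeat gene, reached 2-fold in no comparison as deposited. Its log2 values were 12.99, 13.21, 12.96 and 12.34. Cancer control and normal control were not distinguishable, at −0.02 [−0.07, 0.02], with an adjusted p of 0.398 in the exact binomial test. Cancer exercise was lowest, by −0.62 [−0.67, −0.57] against cancer control and −0.87 [−0.92, −0.82] against normal exercise. Under scaling to library size, both of these differences passed 2-fold.

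Other titin-linked and Z-disc proteins that sense strain were at least 2-fold higher in cancer control than in normal control in 6 of 13 cases. By that limit 0 were lower, and the median was 0.90. Differences of any size were higher for 11 and lower for 2. The count past 2-fold in cancer exercise vs. cancer control was 0 higher and 2 lower, with a median of −0.33, and 5 were lower under scaling to library size. In normal exercise vs. normal control 0 of 12 passed 2-fold, with a median of 0.27, and in cancer exercise vs. normal exercise 3 of 13 were higher and 0 lower, with a median of 0.07, which became 2 higher and 2 lower with a median of −0.65 under scaling to library size. Fhl1, a LIM protein bound to titin, was 2.22 [2.07, 2.37] higher in cancer control than in normal control, and Ankrd23, a relative of Ankrd1, was 1.63 [1.56, 1.69] higher. In cancer exercise vs. cancer control, Ankrd23 was −1.01 [−1.06, −0.96] and Flnc, the actin crosslinker filamin C, was −1.15 [−1.34, −0.96]. Tcap, which caps titin at the Z-disc, was 1.57 in cancer control vs. normal control and −0.41 in cancer exercise vs. cancer control. It was also −0.90 in normal exercise vs. normal control and 2.07 in cancer exercise vs. normal exercise. Myot, the Z-disc protein myotilin, was 1.23 higher in the latter comparison.

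**Figure D5:**
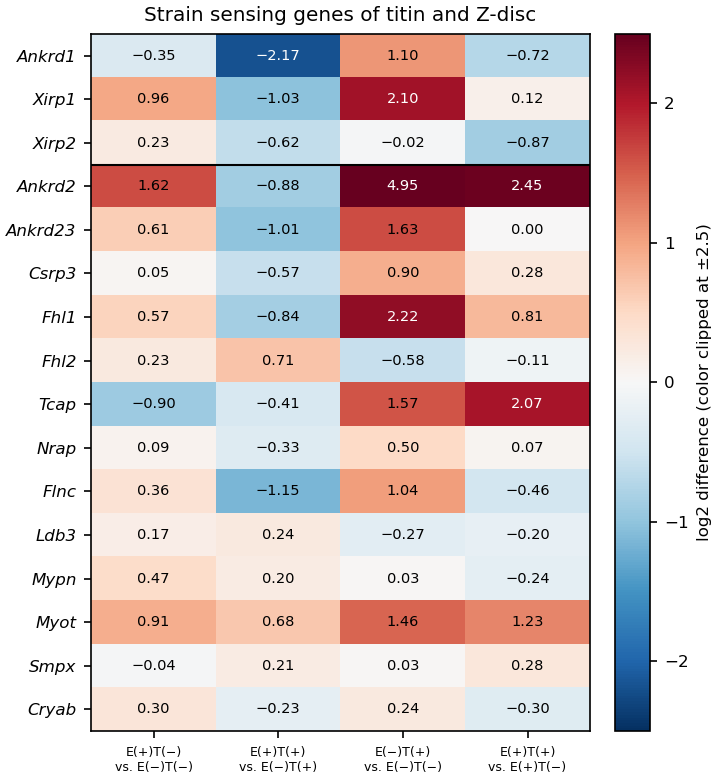
Each cell gives the log2 difference between the 2 libraries named below the column, with Ankrd1, Xirp1 and Xirp2 above the line and the 13 other strain genes below it, red for higher and blue for lower in the first-named library. The E(−)T(+) vs. E(−)T(−) column is mostly red and the E(+)T(+) vs. E(−)T(+) column mostly blue. Ankrd2 had only 0 to 39 reads, so its values depend on the added count of 1.

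Rcan1 was lowest in normal control in the deposited values, but as a share of all reads cancer exercise, at 0.0107%, lay just below it, at 0.0113%. Its log2 values were 9.73 in normal control, 10.94 in normal exercise, 11.22 in cancer control and 10.41 in cancer exercise, from 742, 2175, 2694 and 1240 reads. Exercise without tumor gave 1.21 [1.09, 1.33], or 2.31-fold, and tumor without exercise 1.48 [1.36, 1.60], or 2.79-fold. Where both were present the level was lower than with either alone, by −0.81 [−0.91, −0.71] against cancer control and −0.54 [−0.64, −0.44] against normal exercise. These last values stayed under 2-fold as deposited and passed it under scaling to library size. Rcan1 spans 92391951-92466169 on chromosome 16. The window before its internal start, chr16:92400079-92400328 on the minus strand, held GGAAAA on the opposite strand 228 bases and on the same strand 193 bases before the start, and the window before its first start held none of the motifs. GGAAAA was in 20.4% of all promoter windows. Reads from the 3′ end do not tell which start was used.
Rcan1 internal start: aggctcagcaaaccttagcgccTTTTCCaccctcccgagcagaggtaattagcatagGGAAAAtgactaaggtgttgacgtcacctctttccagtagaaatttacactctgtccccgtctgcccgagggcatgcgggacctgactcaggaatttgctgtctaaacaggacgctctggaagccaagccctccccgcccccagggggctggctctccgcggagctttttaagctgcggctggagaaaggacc

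Genes of calcineurin, NFAT and MEF2 signaling were set beside Rcan1. Of 19 genes, 0 passed 2-fold in normal exercise vs. normal control, and 1 was lower and 0 higher in each of the other comparisons. Under scaling to library size, 4 were lower in cancer exercise vs. cancer control, with a median of −0.55. There 25.6% of all genes were lower, with a median of −0.60. In cancer exercise vs. normal exercise 10 were lower, with a median of −1.07, against 35.3% of all genes and a median of −0.74. As deposited, their medians were −0.05 in normal exercise vs. normal control, 0.04 in cancer exercise vs. cancer control, −0.42 in cancer control vs. normal control and −0.36 in cancer exercise vs. normal exercise. Mef2c, a transcription factor of cardiac growth, was −0.70 [−0.80, −0.60] in cancer control vs. normal control. Rcan2, the paralog of Rcan1, was 0.55 [0.47, 0.62] higher in cancer exercise than in normal exercise.

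Adult cardiomyocyte genes that are known to be lowered in the stressed heart were compared as the counterpart of the fetal genes. Of 14 genes, 0 passed 2-fold in normal exercise vs. normal control or in cancer exercise vs. normal exercise, with medians of 0.03 and 0.16. In cancer control vs. normal control 2 were lower and 0 higher, with a median of −0.27, and in cancer exercise vs. cancer control 2 were higher and 0 lower, with a median of 0.31. Kcnip2, a subunit of the transient outward potassium channel, was −1.55 [−1.64, −1.47] in the former and 1.04 [0.95, 1.14] in the latter. Ppara, a nuclear receptor that drives fatty acid oxidation, was −1.48 [−1.70, −1.26] with tumor in sedentary mice, and Ppargc1a, a coactivator of mitochondrial genes, was 1.27 [1.12, 1.42] higher in cancer exercise than in cancer control. Ryr2 went the other way, 0.84 higher in cancer control vs. normal control and 0.665 [0.61, 0.72] higher in cancer exercise vs. normal exercise. Counting differences of any size, 3 of the 14 were higher and 11 lower in cancer control vs. normal control. Scaled to library size, the median of this list in cancer exercise vs. cancer control turned to −0.28, with 0 genes higher and 0 lower, and that in cancer exercise vs. normal exercise to −0.56, with 0 higher and 3 lower.

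Of 14 cardiac transcription factors with enough reads, 1 was at least 2-fold higher in normal exercise vs. normal control and 1 in cancer exercise vs. cancer control. By the same limit 2 were lower in cancer control vs. normal control, and 0 passed in cancer exercise vs. normal exercise. The medians were 0.14, 0.20, −0.25 and −0.21, in that order. Under scaling to library size the second median became −0.38 with 0 genes higher and 1 lower, where 25.6% of all genes were lower. In cancer exercise vs. normal exercise 6 genes were then lower, where 35.3% of all genes were. Hand2, a ventricular and smooth muscle factor, was 1.36 [1.18, 1.53] higher in normal exercise than in normal control. Mkl2, a coactivator of SRF, was 0.99 [0.76, 1.23] higher in cancer control than in normal control, and Tbx5, a factor of the atria and left ventricle, was 0.99 [0.75, 1.24] higher in cancer exercise than in normal exercise.

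The 9 genes were not alike among themselves. The closest pair was Myh6 and Myh7, whose log2 values, each taken from its own mean over the 4 libraries, differed by a root mean square of 0.23. Such a distance is small wherever genes vary little, and these had the narrowest ranges, 1.58-fold and 1.34-fold. It does not show a shared pattern, as Myh6 was highest in cancer exercise and Myh7 in normal control. Xirp1 and Rcan1 differed by 0.34 and Nppb and Ankrd1 by 0.35. Nppa was no nearer than 0.54 to any other, and Acta1 no nearer than 0.62. Over all 7074 genes that averaged 100 or more normalized reads, the nearest was Kdm7a for Nppa, Arrdc3 for Nppb, B3gat2 for Myh6, Tmem57 for Myh7, Sec14l1 for Acta1, Igfbp3 for Ankrd1, Mfap5 for Xirp1, 2810403A07Rik for Xirp2 and Nupr1 for Rcan1. The distances ran from 0.0128 for Myh7 to 0.130 for Ankrd1. With only 4 libraries, likeness of this kind is a description of these libraries.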

How the data were processed

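Hearts were profiled by 3′ mRNA-seq (QuantSeq), 1 library per group. According to the submitters' processing notes and the study's methods, reads were aligned to mm10 with Bowtie2, counted per gene with bedtools and normalized with the quantile method of edgeR (versions not stated). What the authors deposited is, per gene and library, the log2 of the normalized read count with 1 added. Whole reads were recovered by a fit of the sizes of the libraries and of 1 shared dispersion (0.149), which gave back each deposited value within 0.000522. For genes with many reads the number is approximate. The recovery was tested on simulated data.

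Differences are those of deposited values. Called genes needed 4 normalized reads in 1 of the 2 libraries and a fold of 2, after the study's methods. Recovered reads were compared by an exact binomial test (two-sided, smaller tail doubled) given the fitted library sizes, with Benjamini-Hochberg adjustment over all genes tested and a threshold of 0.05. The text names all 9 members, at most 2 genes per comparison from each of 6 pathway lists (the largest absolute differences among genes averaging 100 or more normalized reads; some are left unnamed) and the gene nearest to each member. Sln, Bmp10, Tnni1, Ankrd2 and Mhrt were named outside this rule. The members and lists were chosen with earlier results of these data known. Of 9 marker lists, those for endothelium (16942 to 25705 summed normalized reads over the libraries) and erythroid cells (645720 to 4722599) served only to describe the tissue. Promoters and gene positions are from RefSeq (GRCm38.p6, the build of mm10). Alternatives covered scaling, added count, depth, minimum, fold and duplicate symbols. Subsampled reads had the same total in every library and were not normalized again, so that setting is also a scaling to library size. Tools were pandas 2.3.3, scipy 1.17.1 and numpy 2.4.6 under Python 3.11.15, with figures by matplotlib 3.10.9.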

Additional observations from a re-analysis of the deposited data

Results flagged for a closer look

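The exercise difference in tumor-bearing mice was set against that in mice without tumors for each of the 9 genes, because in the deposited values 6 genes had exercise differences of opposite sign, 5 had tumor differences of opposite sign, and all 9 had one or the other. By library size 7 of the 9 did, without Nppa and Myh7. The share of all genes with such signs was not computed, so these counts cannot set the 9 genes apart from other genes. Small differences count too, such as −0.055 for Myh7 in cancer control vs. normal control. The gap, on the log2 scale, was −2.02 for Rcan1, −1.99 for Xirp1, −1.83 for Nppb, −1.82 for Ankrd1, −0.85 for Xirp2 and −0.31 for Acta1, and it was 1.27 for Nppa, 0.45 for Myh6 and 0.34 for Myh7. Rcan1 and Nppb had opposite signs in both kinds of comparison. Counting intervals of the gap were 95% normal approximations from the reads of the 4 libraries and do not cover the choice of scaling. They excluded 0 for each of the 9 as deposited, for example [−2.17, −1.86] for Rcan1 and [0.29, 0.38] for Myh7. When scaled to library size, the gaps of Myh6 and Myh7 changed sign, to −0.12 and −0.23, and that of Nppa was 0.71. Each group was 1 library, so the difference between the groups was not tested. Cancer exercise, the library with 37.3% globin reads, enters every gap.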

How the results depend on the processing

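No paired analysis was possible because each group had 1 library and the labels give no replicate numbers, and for the same reason no replicate could be left out. The number of the 9 genes past the fold limit in normal exercise vs. normal control went from 1 to 2 with a limit of 1.5-fold. In cancer exercise vs. normal exercise the number went from 1 to 5 under scaling to library size, under subsampled reads and at 1.5-fold. Of all genes 35.3%, 35.9% and 21.6% were then lower and 5.62%, 6.64% and 20.8% higher, in that order. The number went to 2 under scaling to reads outside genes over 1% or to cardiomyocyte marker reads. Under these, 14.5% and 14.1% of all genes were lower and 10.2% and 10.4% higher. The other totals stayed within 1.5 times their values under every alternative run, but the directions and genes behind them could change. Under scaling to library size, 1 higher and 3 lower in cancer exercise vs. cancer control became 0 and 5. In cancer control vs. normal control, 4 higher and 1 lower became 3 and 2. Subtracting the Mhrt reads, an alternative chosen after seeing the data, moved the Myh7 share to 24.1%, 18.3%, 18.2% and 13.5%. The exercise difference with tumor minus that without, recomputed as a further alternative chosen after seeing the data, changed sign for Myh6 to −0.12 by library size and −0.11 by subsampled reads, and for Myh7 to −0.23 and −0.23, and for none of the other 7 genes under any alternative run. Of 252 recomputed differences of single genes, 152 stayed within their counting interval, 100 moved and 0 called differences changed sign. Counted once per gene and comparison, 5 of 36 differences changed sign under at least 1 alternative, all of them uncalled. They were Myh6 in cancer exercise vs. cancer control and Nppa, Myh6, Myh7 and Xirp1 in cancer exercise vs. normal exercise. Each did so under scaling to library size and subsampled reads, and Xirp1 also under scaling to reads outside genes over 1% and to cardiomyocyte marker reads. Each of the 9 genes had 217 reads or more in every library, and whether depth limited these comparisons was not tested. They rest on 1 library per group.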
